A study of Mus musculus with 47 samples.

Results

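Expression of 4 genes of sphingosine-1-phosphate (S1P) sensing and transport was followed across 47 RNA-seq libraries of mouse T-cell precursors. The genes were the receptors S1pr1 and S1pr3, the exporter Spns2 and the transcription factor gene Klf2. They were taken by symbol from a table of 17754 genes, and all 4 had 1 entry each. They were picked with their values in these libraries already in view, so their levels and differences are given as descriptions with no test. Tests are given only for other genes of the pathway.

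The study deleted Bcl11b, a zinc-finger transcription factor gene that precursors turn on at T-lineage commitment, and asked what its loss changes. Cells are staged by surface markers as DN2a, DN2b and DN3, in that order, where DN stands for double negative for CD4 and CD8. Of the libraries, 19 are labelled knockout. The largest contrast set 14 knockout libraries from fetal liver (8 on OP9-DL1 and 6 on OP9-DL4 stroma) against 11 controls (8 on OP9-DL1 and 3 on OP9-DL4). OP9-DL1 and OP9-DL4 are bone marrow stromal lines that present the Notch ligands Delta-like 1 and Delta-like 4.

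Both arms began with embryonic day 13.5 fetal liver precursors infected with a Cre retrovirus. The knockout cells carried homozygous floxed Bcl11b, with or without a ROSA26R-YFP reporter, and the controls were C57BL/6 cells with intact Bcl11b, with or without the same reporter. Cultures received 5 ng/ml IL-7, except 4 knockout and 3 control libraries whose labels give a reduced level. The protocol names a DN2a gate for floxed cells and a DN2b gate for controls, so genotype and sort gate cannot be told apart in most of these libraries. Titles name DN2a for 8 of the knockout libraries, DN2 for 5 and DN2b for 1, and DN2b for 8 of the controls and DN2 for 3.

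Vector libraries came from cells of the same kind that were infected again 36 h before harvest, 1 library each of knockout with a Bcl11b vector, knockout with empty vector and control with empty vector. Bone marrow gave 1 library of Cre-ERT2 floxed cells and 1 of Cre-ERT2 Bcl11b wild-type cells, both treated with tamoxifen and grown on the OP9-DL4 type of stroma. Thymus gave 1 LckCre knockout library staged DN2, deleted in the animal, and 1 LckCre control staged DN3. Thymic DN3 cells with Cre-ERT2 were also treated with 100 nM tamoxifen and cultured on OP9-DL4, as 1 floxed knockout after 4 days and 2 controls without floxed Bcl11b after 3 and 4 days. Fresh DN3 cells with Cre-ERT2 and no deletion, 1 of them with floxed Bcl11b, made up 2 libraries. Normal fetal liver cells on OP9-DL1, given no Cre, made up 2 DN2b and 2 DN2a libraries with a gamma-secretase inhibitor (GSI, 1 µM for 12 h), and 2 DN2b and 4 DN2a libraries without it. The inhibitor blocks the cleavage that releases active Notch. DN2b replicate 1, with and without GSI, carries DN3 in its title.

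S1P is a lipid signal made inside cells from sphingosine by sphingosine kinases, exported by Spns2 or Mfsd2b, and broken down by a lyase and by phosphatases. Blood and lymph hold much of it and tissues little, and lymphocytes that carry the receptor S1pr1 follow this gradient. In the thymus, mature single-positive cells switch on Klf2, a zinc-finger factor that activates S1pr1, and then leave. The DN cells studied here are far earlier than that exit step.

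Levels are FPKM, fragments scaled to transcript length and to the mapped total, from a table that the authors adjusted with ComBat, a batch-removal method, before deposit. The lowest value in the table is 0.1, which acts as a floor, and a value of 0.1 is read as not detected. Differences are on the log2(FPKM + 1) scale with the standard error (SE) of a linear model fitted to all genes. Libraries held between 11756 and 13370 genes at 1 FPKM or more, and sequencing depth is unknown from these values.

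Promoter sequences are shown for the members that a RefSeq table of promoters held, 3 of 4, because the results turn on how these genes move together or apart across stages. Each run is the 250 bases before the annotated start in build GRCm38.p6, 5′ to 3′ on the gene's strand. S1pr3 lies at chr13:51408368-51408617 on the plus strand, Spns2 at chr11:72475028-72475277 on the minus strand and Klf2 at chr8:72318812-72319061 on the plus strand. The Spns2 entry belongs to a transcript that starts 14949 bases inside the gene. Capitals mark matches on either strand to 4 motifs. The Krüppel-like factor motif searched was CACCC, the MEF2 motif was CTANNNNTAG, the Runx motif was TGTGGT and the GATA motif was AGATAA.
S1pr3: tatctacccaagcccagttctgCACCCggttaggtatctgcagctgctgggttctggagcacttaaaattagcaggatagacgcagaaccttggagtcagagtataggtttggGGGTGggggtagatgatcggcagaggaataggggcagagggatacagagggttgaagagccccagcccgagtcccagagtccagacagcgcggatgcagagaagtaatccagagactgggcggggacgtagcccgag
Spns2: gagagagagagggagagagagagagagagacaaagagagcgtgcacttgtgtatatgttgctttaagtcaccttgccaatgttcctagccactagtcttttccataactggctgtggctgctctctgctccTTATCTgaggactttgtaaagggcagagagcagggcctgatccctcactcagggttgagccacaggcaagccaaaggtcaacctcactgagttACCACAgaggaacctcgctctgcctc
Klf2: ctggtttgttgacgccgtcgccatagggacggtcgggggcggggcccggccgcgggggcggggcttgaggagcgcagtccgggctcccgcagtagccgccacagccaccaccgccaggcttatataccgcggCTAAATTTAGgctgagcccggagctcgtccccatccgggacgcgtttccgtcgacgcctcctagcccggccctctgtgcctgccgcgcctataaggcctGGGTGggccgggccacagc

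The S1pr3 window held the Krüppel-like factor motif at -228 to -224 on the plus strand and at -137 to -133 on the minus strand, counted from the start. The Spns2 window held the GATA motif at -119 to -114 and the Runx motif at -26 to -21, both on the minus strand. The Klf2 window held the Krüppel-like factor motif at -19 to -15 on the minus strand and the MEF2 motif at -118 to -109. Of 32851 promoter windows of this length, 52.0% held the Krüppel-like factor motif, 3.2% the MEF2 motif, 14.0% the Runx motif and 9.99% the GATA motif. No match overlapped another in these 3 windows, and a match describes the letters only.

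Bcl11b transcript checked the labels in part, since the labels do not give the deleted segment and signal remained in every knockout library. Across fetal liver cultures its mean was 23.96 ± 7.06 FPKM in the 14 knockouts, against 56.4 ± 19.8 FPKM in the 11 controls, each with its SD. The library labelled control DL1 replicate 1, at 16.9 FPKM, lay inside the knockout range. In bone marrow Bcl11b stood at 45.0 FPKM in the library labelled knockout and 44.9 FPKM in its control, so it did not separate them. Kit, which the DN2a gate selects for, had a mean of 55.7 ± 21.5 FPKM in those knockouts, against 28.8 ± 11.3 FPKM in the controls.

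**Figure D1:**
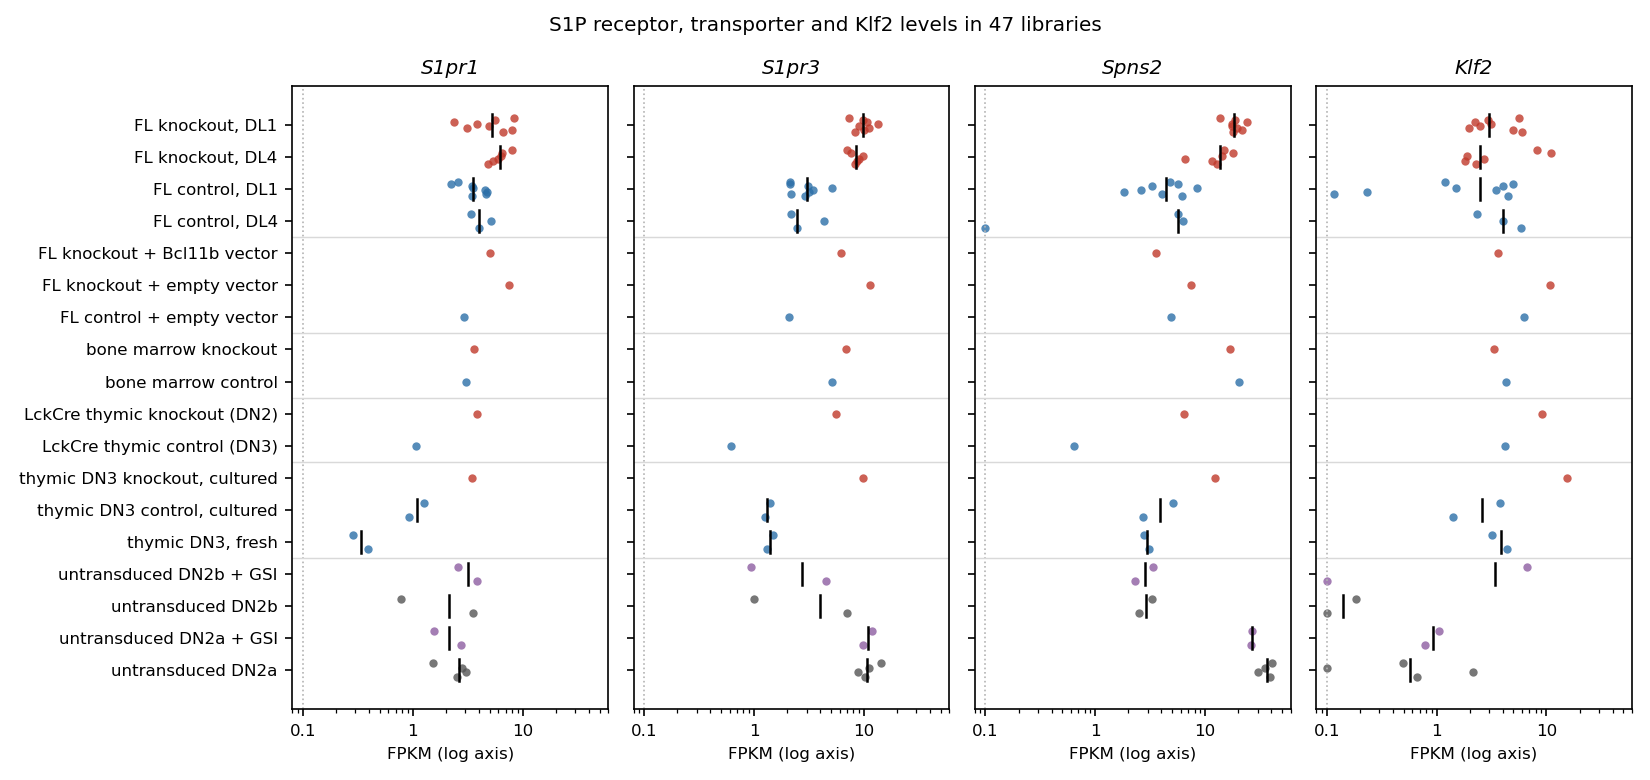
FPKM of S1pr1, S1pr3, Spns2 and Klf2 (log axis) in each of the 47 libraries, 1 point per library and 1 row per group; vertical bars are medians and the dotted line is the floor of 0.1. Spns2 spans the widest range, with untreated DN2a libraries between 30.1 and 40.3 FPKM, fetal liver knockouts between 6.57 and 24.0 FPKM and fetal liver controls between 0.1 and 8.49 FPKM.

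S1pr3, a receptor that couples to several G protein classes and is best known from heart and vessels, was higher in knockout than in control cultures without overlap. On OP9-DL1 it ran from 7.23 to 13.3 FPKM in knockout (median 9.87, n = 8) and from 2.1 to 5.16 FPKM in control (median 3.0, n = 8). On OP9-DL4 the 6 knockout libraries ran from 6.95 to 9.7 FPKM (median 8.47), against 2.15, 4.32 and 2.48 FPKM in the 3 controls. The lowest knockout library thus lay above the highest control on either stroma. Ranges that did not overlap, with knockout higher, were found for 1.21% of the 12678 genes tested in this comparison, for 1.76% of genes within OP9-DL1 and for 6.72% within OP9-DL4; these shares are given as background, since S1pr3 was picked on the same values. The difference was 1.39 (SE 0.10), with knockouts at 9.26 ± 1.69 FPKM (SD, n = 14), against 3.01 ± 0.99 FPKM (SD, n = 11) for controls.

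Knockout and control libraries that share a title date, stroma and IL-7 level form 9 pairs, and S1pr3 was higher in knockout in 9 of 9, by 0.92 to 1.78. The 3 years in the titles gave 1.40, 1.21 and 1.41, earliest to latest. The year values thus differed less than those of single pairs. In the 3 pairs whose titles name DN2 for both genotypes, each pair being the same knockout culture and the same control culture on another day, the difference was 1.30 (SE 0.22).

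Spns2, the S1P exporter that endothelial cells use to load lymph, differed most of the 4 genes on this scale. On OP9-DL1 it ran from 13.6 to 23.99 FPKM in knockout (median 18.4, n = 8) and from 1.84 to 8.49 FPKM in control (median 4.42, n = 8). On OP9-DL4 the knockout libraries ran from 6.57 to 17.98 FPKM (median 13.5, n = 6), and the 3 controls stood at 5.7, 6.31 and 0.1 FPKM. Within each stroma the groups did not overlap. Over both stromas they did, through knockout DL4 replicate 4 at 6.57 FPKM and control DL1 replicate 4 at 8.49 FPKM.

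The Spns2 difference was 1.89 (SE 0.23), with means of 16.3 ± 4.44 FPKM (SD, n = 14) for knockouts and 4.44 ± 2.37 FPKM (SD, n = 11) for controls. It was higher in knockout in 9 of 9 pairs, by 0.05 to 3.66. The smallest value came from the pair titled with high IL-7, knockout DL4 replicate 4 and control DL4 replicate 2, at 6.57 and 6.31 FPKM. The largest came from control DL4 replicate 3, which stood at the floor. The 3 title years gave 1.31, 2.04 and 2.04.

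S1pr1, the receptor that T cells need to leave the thymus and lymph nodes, differed less and overlapped. On OP9-DL1 it ran from 2.37 to 8.37 FPKM in knockout (median 5.24, n = 8) and from 2.22 to 4.77 FPKM in control (median 3.51, n = 8). On OP9-DL4 it ran from 4.82 to 8.04 FPKM in knockout (median 6.16, n = 6), against 3.38, 5.13 and 4.03 FPKM in the 3 controls. Of the 14 knockout libraries, 9 lay above every control. The difference was 0.42 (SE 0.15), with means of 5.69 ± 1.81 FPKM (SD, n = 14) for knockouts and 3.79 ± 0.91 FPKM (SD, n = 11) for controls.

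The S1pr1 difference varied between subsets by IL-7 level, title year and title stage. In the 7 libraries with reduced IL-7 the difference was 1.10 (SE 0.29), with 7.05 ± 1.41 FPKM (SD, n = 4) in knockouts, against 2.73 ± 0.60 FPKM (SD, n = 3) in control. In the 18 libraries with standard IL-7 it was 0.19 (SE 0.16), with 5.15 ± 1.71 FPKM (SD, n = 10) in knockouts, against 4.18 ± 0.65 FPKM (SD, n = 8) in control. The 3 title years gave 1.19, 0.27 and 0.16. Every library of this comparison from the earliest title year had reduced IL-7, as did 1 knockout from the next, so year and IL-7 can hardly be told apart. S1pr1 was higher in knockout in 7 of 9 date pairs, and in the 3 pairs titled DN2 in both genotypes it was -0.20 (SE 0.19).

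Klf2 varied more among libraries of 1 genotype than between genotypes. On OP9-DL1 it ran from 1.99 to 5.98 FPKM in knockout (median 3.02, n = 8) and from 0.117 to 4.98 FPKM in control (median 2.49, n = 8). On OP9-DL4 it ran from 1.82 to 11.03 FPKM in knockout (median 2.5, n = 6), against 2.33, 4.05 and 5.86 FPKM in the 3 controls. The groups overlapped on both stromas. The difference of 0.39 (SE 0.29) turned with the subset, at 1.27, -0.84 and 0.61 in the 3 title years, and at 0.66 on OP9-DL1 and -0.12 on OP9-DL4. With the 9 date pairs as a block it was 0.72 (SE 0.33). Without control DL1 replicate 7 it was 0.26.

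**Figure D2:**
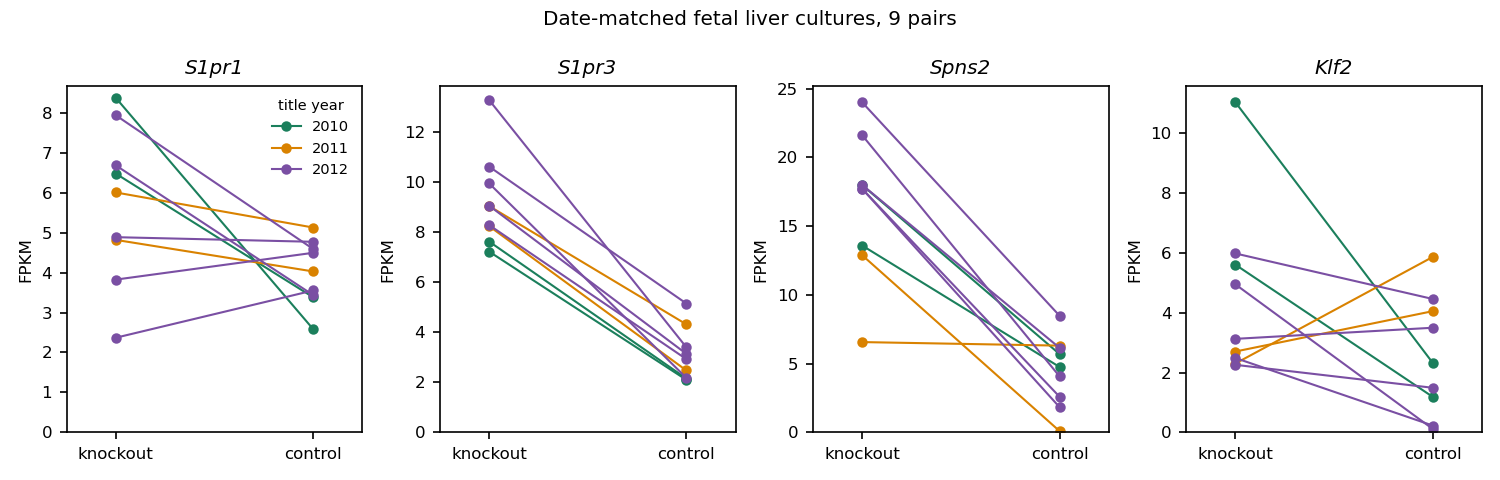
FPKM in the 9 pairs of fetal liver libraries that share title date, stroma and IL-7, knockout left and control right, 1 line per pair, coloured by the year in the title. Every S1pr3 and Spns2 line is higher at knockout, and the Spns2 line that ends at the floor is control DL4 replicate 3; S1pr1 lines are higher at knockout in 7 of 9 pairs and Klf2 lines in 6 of 9.

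**Figure D3:**
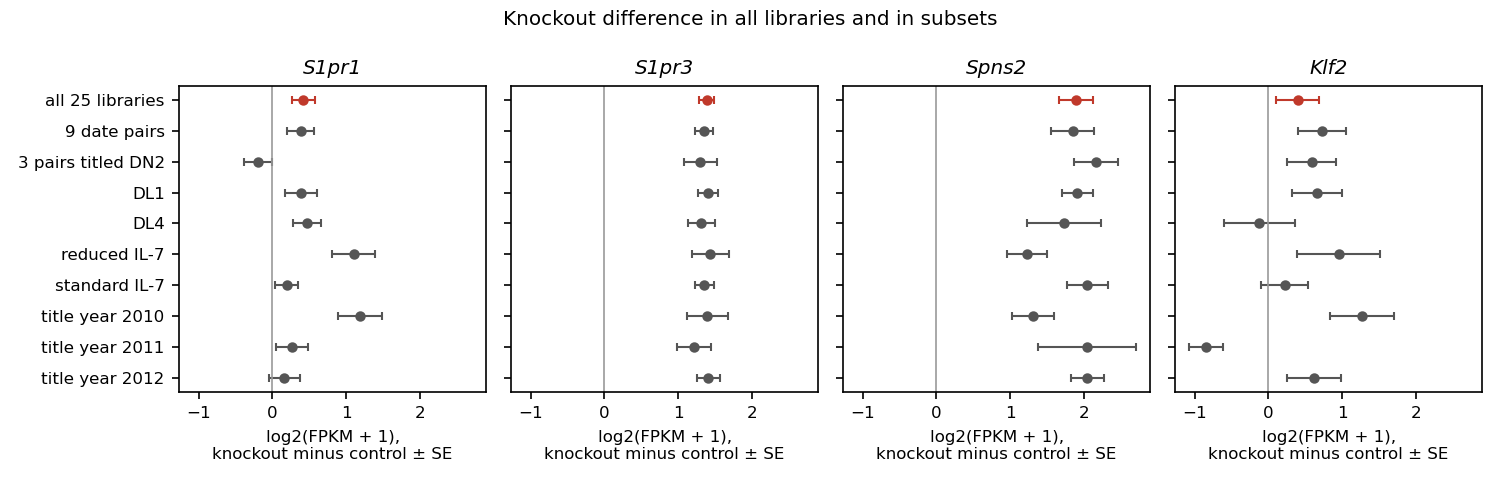
Knockout minus control difference in log2(FPKM + 1) with its SE, over all 25 fetal liver libraries (red) and in subsets by pair, stroma, IL-7 and title year (grey). S1pr3 stays between 1.21 and 1.44, S1pr1 runs from -0.20 in the 3 pairs titled DN2 to 1.19, and Klf2 lies on both sides of 0.

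Several libraries come from cultures harvested on more than 1 day, as counted back from the day and date in their titles. In the first knockout culture Spns2 stood at 23.99, 17.7 and 17.7 FPKM on days 9, 10 and 12, and in the control culture at 8.49, 2.6 and 1.84 FPKM. S1pr3 stood at 10.6, 13.3 and 9.07 FPKM in that knockout culture and at 5.16, 3.41 and 3.14 FPKM in the control. Both genes were therefore higher in knockout on each of the 3 days. S1pr1 stood at 2.37, 3.82 and 4.88 FPKM in the knockout culture and at 3.55, 4.49 and 4.77 FPKM in the control, climbing with the day in both. A second knockout culture had 3.09 FPKM of S1pr1 on day 9 and 7.93 on day 12, with Spns2 at 19.4 FPKM on day 9 and 21.6 on day 12; the day 9 library is titled DN2 and the day 12 library DN2b. Each point is 1 library, so no spread is available.

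**Figure D4:**
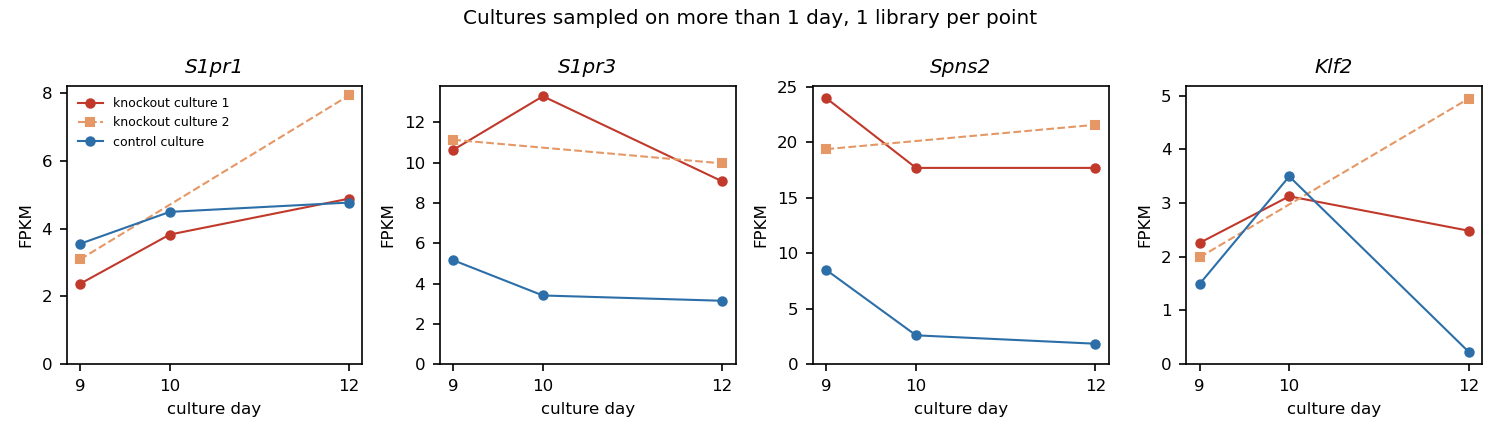
FPKM by culture day in the 2 knockout cultures (red and orange) and the control culture (blue) that were harvested more than once, 1 library per point. S1pr3 and Spns2 of both knockout cultures lie above the control at each shared day, and S1pr1 is higher on day 12 than on day 9 in all 3 cultures, and the day 12 library of the second knockout culture is titled DN2b and the other libraries DN2.

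Across the normal step between stages, in cells with no Cre, Spns2 separated the groups most. It stood at 3.26 and 2.49 FPKM in the 2 untreated DN2b libraries and at 40.3, 35.02, 30.1 and 38.7 FPKM in the 4 untreated DN2a libraries, a difference of -3.26 (SE 0.19). The means were 2.88 ± 0.54 FPKM (SD, n = 2) in DN2b, against 36.0 ± 4.51 FPKM (SD, n = 4) in DN2a. S1pr3 stood at 1.0 and 6.97 FPKM in DN2b, against 14.4, 11.1, 8.85 and 10.3 FPKM in DN2a, a difference of -1.59 (SE 0.50). Both genes lay lower in DN2b without overlap, as did 18.0% of the 13364 genes tested. DN2a replicate 4 has an earlier culture day in its title than both DN2b libraries, and DN2a replicates 1 and 2 give no day. DN2a replicates 3 and 4 also come from a later title year than the other libraries compared here. With replicates 1 and 2 of each stage only, which share a title year, Spns2 was -3.32 (SE 0.28) and S1pr3 -1.77 (SE 0.65). The part of culture day in these differences was not tested. DN2b replicate 1, titled DN3, held the low S1pr3 value, and without it the difference was -0.59; without DN2b replicate 2 it was -2.58.

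S1pr1 stood at 0.787 and 3.53 FPKM in DN2b and at 1.53, 2.79, 3.04 and 2.51 FPKM in DN2a. The DN2b libraries lay on either side of all 4 DN2a libraries. The difference of -0.26 (SE 0.38) was 0.41 without DN2b replicate 1 and -0.93 without DN2b replicate 2, and it was -0.41 without DN2a replicate 1. Klf2 was 0.183 and 0.1 FPKM in DN2b, against 0.5, 0.1, 2.17 and 0.657 FPKM in DN2a, and it missed the filter on low values, which asked for 1 FPKM in at least as many libraries as the smaller group held.

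Fetal liver knockout cells, sorted mostly as DN2a, were set beside the untreated DN2a cells. For Spns2 the 14 knockout libraries, 6.57 to 23.99 FPKM, all lay below the 4 DN2a libraries, 30.1 to 40.3 FPKM; 3.22% of 13531 genes were lower in this way. For S1pr3 they overlapped, at 9.26 ± 1.69 FPKM (SD, n = 14) in knockouts, against 11.2 ± 2.34 FPKM (SD, n = 4) in DN2a. For S1pr1, 13 of the 14 knockout libraries lay above all 4 DN2a libraries, at 5.69 ± 1.81 FPKM (SD, n = 14) and 2.47 ± 0.66 FPKM (SD, n = 4). Klf2 was above all 4 DN2a libraries in 11 of 14. For S1pr1 and Klf2 the share of all genes with such an order was not counted, so these counts are a description only. The knockout cells had been given Cre and in part grew on OP9-DL4, which the DN2a cells had not. Reduced IL-7 was given to 4 of the 14 knockout libraries, while all 4 DN2a libraries had standard IL-7. Titles that give a culture day name days 8.5 to 12 for knockouts, and 4.5 and 8.5 for DN2a. The part of these in the gaps between the groups was not tested.

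With GSI, Spns2 was lower in DN2a cells and little moved in DN2b cells. It stood at 26.6 and 26.4 FPKM in treated DN2a cells, against 40.3 and 35.02 FPKM in their date partners, and at 3.34 and 2.29 FPKM in treated DN2b cells, against 3.26 and 2.49 FPKM. Both treated DN2a values lay below all 4 untreated DN2a libraries, but the share of all genes with this order was not counted, so the order is a description only. Over both stages Spns2 was lower in 3 of 4 pairs, with a difference of -0.26 (SE 0.17, or 0.12 with the pairs as a block). S1pr3 was lower in 4 of 4 pairs by 0.05 to 0.52, at 11.9 and 9.73 FPKM in treated DN2a, against 14.4 and 11.1 FPKM in their partners, and at 0.933 and 4.56 FPKM in treated DN2b, against 1.0 and 6.97 FPKM. Its difference was -0.25 (SE 0.46, or 0.11 with the pairs as a block). In fits without the pairs it was 0.06 without treated DN2b replicate 1 and 0.16 without untreated DN2b replicate 2. Each of these fits kept the date partner of the library left out, and S1pr3 differed widely between the DN2b dates.

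S1pr1 stood at 1.56 and 2.74 FPKM in treated DN2a, against 1.53 and 2.79 FPKM in their partners, and at 2.56 and 3.84 FPKM in treated DN2b, against 0.787 and 3.53 FPKM. The difference of 0.27 (SE 0.32) was -0.05 without untreated DN2b replicate 1. Klf2 missed the filter. It was 6.65 FPKM in treated DN2b replicate 1, against 0.183 FPKM in its partner, and at most 1.06 FPKM in the other 3 treated libraries.

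In thymic DN3 cells kept in culture with Bcl11b intact, S1pr1 stood at 1.26 and 0.914 FPKM, against 0.285 and 0.39 FPKM in fresh DN3 cells. The cultured libraries lay above the fresh ones, although S1pr1 missed the filter; of the 12911 genes that passed it, 11% were higher without overlap. S1pr3 was 1.39 and 1.26 FPKM in culture, against 1.49 and 1.31 FPKM fresh, a difference of -0.05 (SE 0.31). Spns2 was 5.07 and 2.74 FPKM in culture, against 2.79 and 3.07 FPKM fresh (0.28, SE 0.37), and the difference was -0.0703 without cultured replicate 1. Klf2 was 3.77 and 1.4 FPKM in culture, against 3.22 and 4.42 FPKM fresh (-0.50, SE 0.41), and it was -0.0033 without cultured replicate 2.

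Knockout in the same cultured DN3 cells gave 1 library, and here all 4 genes lay above both cultured controls, as did 48.8% of the 14157 genes at 1 FPKM or more in at least 1 of these libraries. S1pr1 stood at 3.47 FPKM, against 1.26 and 0.914 FPKM. S1pr3 stood at 9.71 FPKM, against 1.39 and 1.26 FPKM. Spns2 stood at 12.3 FPKM, against 5.07 and 2.74 FPKM, and Klf2 at 15.2 FPKM, against 3.77 and 1.4 FPKM. That Klf2 value was the highest of all 47 libraries.

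In the LckCre thymic libraries all 4 genes were higher in knockout, as were 50.4% of 13553 genes, although the knockout is staged DN2 and the control DN3, so that stage and genotype cannot be told apart. S1pr1 was 3.86 FPKM in knockout, against 1.06 FPKM in control. S1pr3 was 5.58 FPKM in knockout, against 0.618 FPKM in control. Spns2 was 6.41 FPKM in knockout and 0.635 FPKM in control, and Klf2 was 9.09 FPKM in knockout and 4.15 FPKM in control. In bone marrow cultures S1pr1 was 3.57 FPKM in the library labelled knockout and 3.08 FPKM in control, and S1pr3 was 6.79 FPKM in the library labelled knockout and 5.09 FPKM in control. Spns2 was 16.9 FPKM in the library labelled knockout and 20.3 FPKM in control, and Klf2 was 3.32 FPKM in the library labelled knockout and 4.29 FPKM in control. The first 2 genes thus stood slightly higher and the other 2 slightly lower in the library labelled knockout, whose Bcl11b level was that of the control.

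The vector libraries show the genes 36 h after Bcl11b was put back. S1pr3 stood at 6.24 FPKM in knockout cells with the Bcl11b vector, 11.5 FPKM in knockout cells with empty vector and 2.07 FPKM in control cells with empty vector. Spns2 stood at 3.55 FPKM with the Bcl11b vector, 7.37 FPKM in knockout with empty vector and 4.88 FPKM in control with empty vector. S1pr1 stood at 5.02 FPKM with the Bcl11b vector, 7.43 FPKM in knockout with empty vector and 2.94 FPKM in control with empty vector. Klf2 stood at 3.62 FPKM with the Bcl11b vector, 10.8 FPKM in knockout with empty vector and 6.19 FPKM in control with empty vector. All 4 were lower with the Bcl11b vector than with empty vector in knockout cells, as were 48.4% of 13250 genes. S1pr3 and S1pr1 then remained above the control with empty vector, and Spns2 and Klf2 lay below it. That control had the highest FPKM total of the 47 libraries, 1005744. The totals were 723789 with the Bcl11b vector and 735699 in knockout with empty vector. The values were not rescaled to a common total, and the part of this in the order of the libraries was not tested. Bcl11b itself read 105.4 FPKM with its vector, 24.7 FPKM in knockout with empty vector and 41.4 FPKM in control with empty vector, and 1 library per condition gives no spread. Knockout and control DL1 replicate 7 share this title date and day but had no second infection. They read 21.6 and 4.08 FPKM of Spns2 and 4.94 and 0.117 FPKM of Klf2. S1pr3 read 9.96 and 2.18 FPKM there, and S1pr1 7.93 and 4.59 FPKM. Spns2 in knockout was thus already lower, and Klf2 in both genotypes higher, with empty vector. The part of the second infection in these levels was not tested.

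Among groups of 2 or more libraries, ordered by mean, Spns2 was highest in untreated DN2a cells (36.0 ± 4.51 FPKM, n = 4) and then in DN2a with GSI (26.5 ± 0.16, n = 2), knockout on OP9-DL1 (18.9 ± 3.06, n = 8) and knockout on OP9-DL4 (12.98 ± 3.82, n = 6), all as mean ± SD, and each of these lay from the next by more than the larger SD. Control on OP9-DL1 (4.6 ± 2.15, n = 8), control on OP9-DL4 (4.04 ± 3.42, n = 3), cultured DN3 (3.9 ± 1.65, n = 2), fresh DN3 (2.93 ± 0.20, n = 2) and both DN2b groups (2.88 ± 0.54 untreated and 2.82 ± 0.74 with GSI, n = 2 each) followed, and no neighbours among these 6 differed beyond their SD. Among the same groups S1pr3 was highest in untreated DN2a (11.2 ± 2.34), DN2a with GSI (10.8 ± 1.56), knockout on OP9-DL1 (9.92 ± 1.85) and knockout on OP9-DL4 (8.38 ± 0.99), whose neighbours lay within the larger SD of each other. It was lowest in fresh (1.4 ± 0.12) and cultured DN3 (1.32 ± 0.09), with the DN2b and fetal liver control groups between 2.74 and 3.99 FPKM.

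Among groups of 2 or more libraries S1pr1 had its highest means in knockout on OP9-DL4 (6.16 ± 1.11 FPKM, n = 6) and OP9-DL1 (5.34 ± 2.21, n = 8), which overlapped, then in the controls on OP9-DL4 (4.18 ± 0.88, n = 3) and OP9-DL1 (3.64 ± 0.94, n = 8), with no neighbours apart by more than the larger SD. DN2a and DN2b cells with or without GSI lay between 2.15 and 3.2 FPKM with overlapping values. Cultured (1.09 ± 0.25, n = 2) and fresh DN3 cells (0.338 ± 0.07, n = 2) had the lowest means, each beyond the larger SD from the group above it. Cultured DN3 was not apart from untreated DN2b (2.16 ± 1.94, n = 2), where 1 library, at 0.787 FPKM, lay below both cultured DN3 libraries. Klf2 was lowest in untreated DN2b (0.141 ± 0.06, n = 2), untreated DN2a (0.856 ± 0.90, n = 4) and DN2a cells with GSI (0.919 ± 0.19, n = 2). The other groups with replicates lay between 2.5 and 4.67 FPKM and overlapped.

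Over the 47 libraries S1pr3 and Spns2 varied together, with Pearson's r of 0.79 on log2(FPKM + 1). S1pr1 and S1pr3 had r of 0.53, Klf2 and S1pr1 0.27, and S1pr1 and Spns2 0.24, while Klf2 had -0.04 with S1pr3 and -0.05 with Spns2. These values describe libraries that fall into groups by genotype and stage and share batches, and carry no test. Among 14602 genes, those most like S1pr3 were the tyrosine kinase gene Fes (r of 0.94), 2410022L05Rik (0.93) and Pcyox1l (0.93). Those most like Spns2 were Hhex (0.89) and Gfi1b (0.86), transcription factor genes of blood progenitors, and Arhgap6 (0.86). S1pr1 was most like the T-cell costimulator gene Icos (0.89), the lysosomal protease gene Lgmn (0.88) and the delta receptor segment Trdv4 (0.88). Klf2 had weaker matches, in 2210403K04Rik (0.75), the cytokine receptor gene Il2rb (0.71) and Tgfb3 (0.71).

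The rest of the pathway was read from 6 lists of 67 genes, 64 of them in the table; S1pr5, Sgpp2 and Rgs13 were not analysed here. In the fetal liver knockout comparison 60 were tested with limma, and 8 were higher and 3 lower at an adjusted p under 0.05. The 11 called genes are 18.3% of those tested, near the 16.9% called over all 12678 genes (9.8% higher and 7.1% lower). The median difference of the lists was 0.01, and that of all genes 0.04. With the 9 date pairs as a block 2 were higher and 1 lower, against 10.3% of all genes called (5.29% higher and 5.0% lower). With quantile normalization 7 were higher and 6 lower, against 8.93% of all genes higher and 9.61% lower.

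Of the other receptors, S1pr2, which restrains the movement of germinal centre B cells, fell in knockout while S1pr1 and S1pr3 stood higher. Its mean was 5.25 ± 1.17 FPKM (SD, n = 14) in knockouts, against 8.93 ± 1.4 FPKM (SD, n = 11) in controls. The difference of -0.67 (SE 0.10) had a limma adjusted p = 2.772e-05, and S1pr2 was lower in 9 of 9 pairs. The ranges met only at their ends, 3.15 to 6.65 FPKM in knockout and 6.63 to 10.9 FPKM in control. With the 9 pairs as a block S1pr2 was still called, as it was with 7 culture pairs as a block (limma adjusted p = 0.02038). The 3 pairs titled DN2 are 1 knockout and 1 control culture harvested on 3 days. Within them the S1pr2 difference was -0.63 and was not called, where 0.402% of all genes were called. By subset S1pr2 was called on OP9-DL1, with standard IL-7 and in the latest title year. It was not called on OP9-DL4, with reduced IL-7 or in the earlier title years, which hold fewer libraries. S1pr4, a receptor of blood cells and the most abundant of the S1P receptor genes in these cultures by FPKM, read 15.5 ± 4.29 FPKM in knockouts and 15.9 ± 4.33 FPKM in controls and was not called (0.003, SE 0.14).

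Among 13 tested genes of S1P synthesis and removal, 4 were higher in knockout and none lower, with 6 at an unadjusted p under 0.05. Ppap2a, a lipid phosphatase gene, rose by 0.74 (SE 0.15), with 5.18 ± 1.61 FPKM in knockout and 2.76 ± 1.04 FPKM in control (limma adjusted p = 0.0007998). Asah1, the acid ceramidase that frees sphingosine, rose by 0.56 to 27.7 ± 7.55 FPKM, against 17.7 ± 3.16 FPKM in control (adjusted p = 0.004548). The ceramide synthase gene Lass4 rose by 0.46 and the phosphatase gene Ppap2c by 0.36. Of these, only Ppap2a was still called with the 9 date pairs as a block (limma adjusted p = 0.03561). That block counts 3 harvest days of 1 knockout and 1 control culture as separate pairs. With 7 culture pairs as a block Ppap2a was not called (limma adjusted p = 0.1195). The lyase gene Sgpl1 was not called (-0.34, SE 0.17).

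Spns3, a relative of Spns2, was the 1 transport gene of 6 tested that was called, at 17.9 ± 3.72 FPKM in knockout and 13.8 ± 2.38 FPKM in control (0.38, SE 0.11, limma adjusted p = 0.01405). It was not called with the pairs as a block (adjusted p = 0.06424). Of 11 genes for G proteins and receptor desensitisation, 0 were called with limma and 3 had an unadjusted p under 0.05; the most abundant, Gnai2, which carries the S1pr1 signal, read 311 ± 50.5 FPKM in knockout and 297 ± 39.4 FPKM in control.

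The list of Klf2 regulators and related factors split, with 2 of 12 higher and 2 lower. The Krüppel-like factor genes Klf4 (0.83, SE 0.24) and Klf10 (0.54, SE 0.18) rose. Klf3, a repressor of the same family, fell by 0.54 (SE 0.19) and Map2k5, the kinase upstream of ERK5, by 0.26 (SE 0.07). None of these 4 was called with the pairs as a block (limma adjusted p between 0.0693 and 0.086). Foxo1, which drives Klf2 in mature T cells, differed by -0.43 (SE 0.19) and was not called (adjusted p = 0.1337).

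Of 16 homing genes, Itgb7, the beta chain of the gut-homing integrin, was the only one called in knockout. It stood at 78.3 ± 16.8 FPKM in knockouts, against 33.97 ± 14.7 FPKM in controls. The difference of 1.27 (SE 0.19) had a limma adjusted p = 1.424e-05, with knockout higher in 9 of 9 pairs.

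Between DN2b and DN2a cells, 59 list genes were tested and 6 were higher and 4 lower in DN2b, together 16.9% of those tested. Over all 13364 genes 13.5% were called, 9.23% higher and 4.23% lower. Foxo1 rose to 4.68 ± 0.86 FPKM (SD, n = 2) in DN2b, against 1.43 ± 0.49 FPKM (SD, n = 4) in DN2a (1.24, SE 0.24, limma adjusted p = 0.0244), and Klf3 rose by 1.45. Itgae, the integrin chain CD103, rose by 3.01, the lyase gene Sgpl1 by 0.99, the S1P carrier gene Apom by 0.98 and Ppap2a by 0.77. Asah1 fell by 1.63, Itgb7 by 1.44, the G protein gene Gna12 by 1.09 and the MEF2 factor gene Mef2c by 0.73. The counts were 0 and 0 without DN2b replicate 1 and without DN2a replicate 4, 1 and 6 without DN2b replicate 2, 3 and 2 without DN2a replicate 1, 4 and 2 without DN2a replicate 2, and 5 and 1 without DN2a replicate 3. DN2a replicate 4 is the library titled with an earlier culture day than both DN2b libraries, so stage and day are not fully apart here. With quantile normalization 3 were higher and 5 lower. The shares over all genes moved too, to 4.34% higher and 5.18% lower (9.52% in all) with quantile normalization, to 0.208% higher and 0.223% lower (0.431% in all) without DN2b replicate 1, and to 1.06% higher and 0.701% lower (1.76% in all) without DN2a replicate 4.

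**Figure D5:**
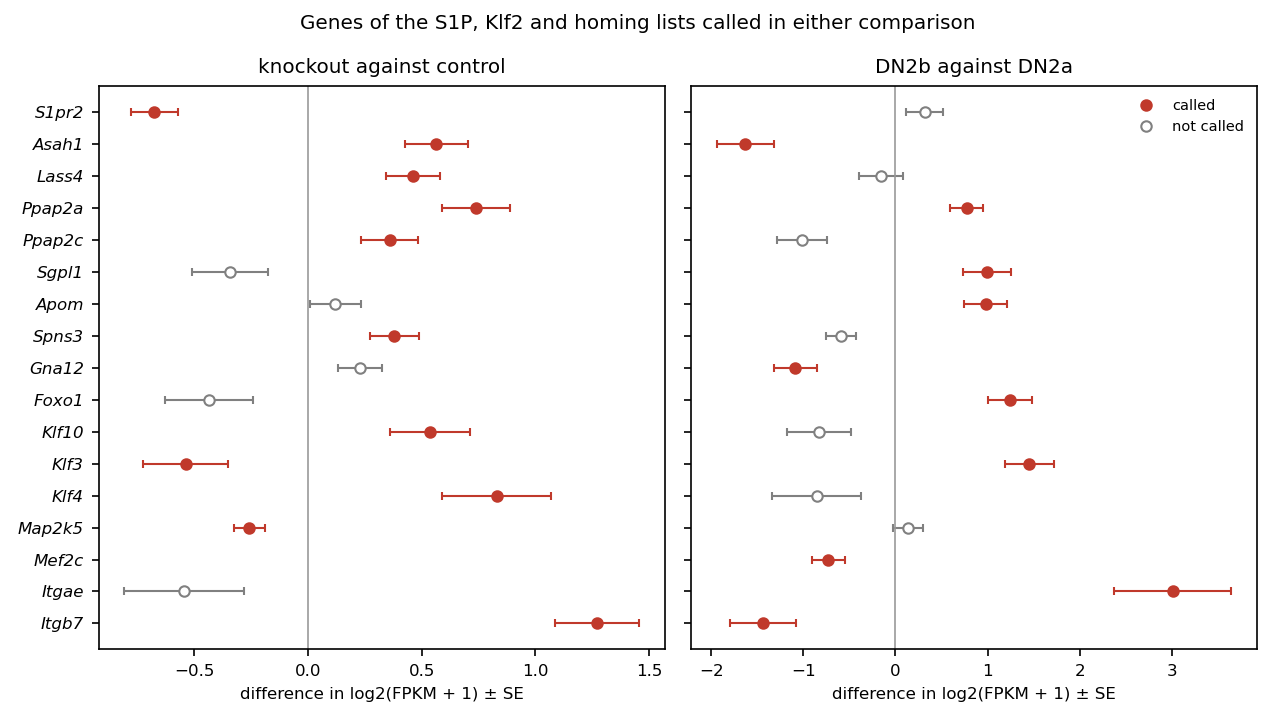
Difference in log2(FPKM + 1) with its SE for each list gene called in at least 1 of 2 comparisons, knockout against control (left) and DN2b against DN2a (right); filled points are called at an adjusted p under 0.05. Mef2c was not tested in the knockout comparison. S1pr2 has the lowest and Itgb7 the highest value on the left, and Itgae the highest on the right.

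With GSI, 0 of 58 list genes and 0 of all 12783 genes were called with limma (0.0%). Of all genes, 297 had an unadjusted p under 0.05, and 1323 with the 4 date pairs as a block, where again 0 were called; 2 of the list genes, Abcg1 and Itgal, had an unadjusted p under 0.05, both lower with GSI in 4 of 4 pairs. In cultured against fresh DN3 cells, 1 of 59 list genes was called, against 0.426% higher and 0.124% lower of 12911 genes (0.55% in either direction). This was Itgb2, the beta chain of the leukocyte integrins, at 41.3 ± 16.6 FPKM in culture and 7.75 ± 0.42 FPKM fresh (SD, n = 2 each; 2.22, SE 0.36, limma adjusted p = 0.0337). Leaving out any 1 library left a single library in a group, and the Itgb2 difference then ran from 1.81 to 2.63. The counts of called genes moved with the library left out, in the lists and over all genes.

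Endothelial cells express all 4 members, so markers of other cell types were read beside them. Of 11 endothelial markers 5 were analysed. Their summed level ran from 64.2 to 109.5 FPKM in knockout and from 51.1 to 87.6 FPKM in control. Most of it came from Pecam1, which blood cells also express, and Tie1 stayed under 1 FPKM in all of these libraries. Among the 3 endothelial markers tested here, Pecam1 alone had a call, at 0.46 (SE 0.16, limma adjusted p = 0.04419). Its level was higher in knockout in 6 of 9 pairs and lower in 3. Between DN2b and DN2a cells, 1 of 4 endothelial markers tested had a call, lower in DN2b. Mature NK markers (7 of 9 analysed) summed to between 1689 and 4740 FPKM in knockout and between 719 and 1906 FPKM in control, nearly all from Gzma, with Ncr1, Eomes and Prf1 under 1 FPKM throughout. Of the 4 NK markers tested 3 were called higher in knockout, Gzma by 1.19, Klrd1 by 2.09 and Klrb1c by 0.67, and Klrd1 read 12.9 FPKM in knockouts, against 1.76 FPKM in controls. Stromal markers (10 of 11 analysed) summed to between 304 and 631 FPKM in knockout and between 499 and 999.7 FPKM in control, mostly from Thy1, which T cells carry. Myeloid markers (8 of 9 analysed) ran from 14.8 to 48.96 FPKM in knockout and from 15.9 to 63.5 FPKM in control. Mature T-cell markers (7 of 7) ran from 23.96 to 168.9 FPKM in knockout and from 32.1 to 298.5 FPKM in control. Calls in this comparison were made for 1 of 8 stromal markers tested, which was lower in knockout. Of 5 myeloid markers tested, Emr1 (0.44) and Ly6c1 (-2.28) had calls, and of 7 T-cell markers only Cd5 (-0.95). In cultured DN3 cells stromal markers summed to between 909 and 1170 FPKM, against 565 to 779 FPKM in fresh cells, mostly from Thy1. Of 7 stromal markers tested 3 were called higher in culture, Col1a1 at 4.55 FPKM, against 0.1 FPKM fresh, Col1a2 at 6.88, against 0.437 FPKM, and Sparc at 6.59, against 0.172 FPKM. Gzma read 711.5 FPKM in culture, against 0.1 FPKM fresh, and the T-cell markers Cd8a, Cd8b1 and Trac, at 0.1 FPKM fresh, were also called higher in culture. In untreated DN2b cells stromal markers summed to between 401 and 727 FPKM, against 36.0 to 99.4 FPKM in DN2a. The DN2b sum was mostly Thy1, at a mean of 502.6 FPKM, while the most abundant stromal marker in DN2a was Pdgfrb, at 29.2 FPKM. Myeloid markers summed to between 31.6 and 32.1 FPKM in DN2b, against 54.0 to 70.4 FPKM in DN2a. Of 6 myeloid markers tested between these stages, 1 had a call in each direction, and none of 8 stromal markers had a call. The part of these levels in the differences above was not tested, and in bulk RNA fewer cells of a type and less RNA per cell cannot be told apart.

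Library preparation listed no step that marks strand. S1pr3 overlaps the antisense non-coding gene Gm32834 over 10048 bases and Spns2 overlaps the antisense gene Mybbp1a over 131 bases in the GENCODE M21 annotation, so reads of the partners cannot be told apart. S1pr1 and Klf2 overlap no other gene there.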

How the data were processed

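RNA was extracted with Trizol, selected on oligo-dT beads, fragmented and copied by random priming, per the labels' protocols. The authors deposited FPKM values in 1 table that was merged and ComBat-adjusted, per its file name. Mouse build mm9 was used, per the submitters' processing notes. Which aligner, counting program and ComBat settings were used is not given in the sources used here, and the adjustment may have moved the differences either way. Another 16 columns could be tied to none of the samples and were set aside. The table held 17754 genes, and 92 symbols named 2 entries.

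Groups came from titles and characteristics. Linear models were fitted to log2(FPKM + 1) by limma 3.58.1 (R 4.3.3, trended variances), over genes with at least 1 FPKM in no fewer libraries than the smaller group has. P-values were Benjamini-Hochberg adjusted over all genes tested, and an adjusted p under 0.05 is a call. Small values are understated on this scale. Covariates were stroma and IL-7 in the fetal liver fit and stage in the GSI fit. The test was checked on simulated data.

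The members and the gene lists were chosen with earlier results of these data known. Named list genes are those called in a comparison, or the most abundant tested gene of a list without a call, and the 3 genes most like each member by Pearson's r among genes with 1 FPKM in at least 5 libraries. S1pr4, Foxo1, Sgpl1 in the knockout comparison, Abcg1 and Itgal were named after their values were seen. Pairs share a title date in the labels. Within pairs, deviations from the group means correlated between -0.0554 and 0.5283 for knockout and at 0.6663 and 0.7297 for GSI. The labels do not always say whether libraries of a group came from separate cultures, so p-values measure the spread between these libraries, which may be technical. No library duplicated another, the highest correlation of any 2 being 0.9887. S1pr5, Sgpp2, Rgs13 and the markers Cdh5, Kdr, Tek, Emcn, Nos3, Cldn5, Lum, Cd14, Tbx21 and Klrg1 were not analysed here. Promoters and their coordinates are from RefSeq (GRCm38.p6), and gene overlaps from GENCODE M21, where 16481 identifiers matched. Also tried were quantile normalization, a pseudocount of 0.1, robust variances, no filter, blocks by pair, leaving out each library, and subsets by year, stroma, IL-7 and title.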

Additional observations from a re-analysis of the deposited data

Results flagged for a closer look

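S1pr3 in control cultures on OP9-DL1 had 1 library that stood apart from the other 7, replicate 4, harvested on day 9, at 5.156 FPKM. It was the only one of 16 combinations of a member gene and a group that met this criterion, a gap to the nearest library that is large for the range of the group, and chance meets it in about 1 of 20.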

How the results depend on the processing

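S1pr3 and Spns2 kept their direction in the knockout comparison under every alternative run. S1pr3 was 1.64 with a pseudocount of 0.1, and Spns2 was 1.23 with reduced IL-7 only. S1pr1 was 1.19 in the earliest title year, 1.10 with reduced IL-7 only and -0.20 in pairs titled DN2 in both genotypes. Klf2 was 1.27 in the earliest and -0.84 in the middle title year and -0.12 on OP9-DL4. The cause was not tested. The IL-7 subsets, the DN2-titled pairs and the 7 pairs of separate cultures were chosen after seeing the data.

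Of the pathway genes, 8 were higher and 3 lower in knockout, and these counts became 7 and 6 with quantile normalization, 2 and 1 with the replicate block of 9 date pairs, and 1 and 1 with the block of 7 culture pairs. They were 4 and 0, 1 and 0, and 2 and 1 in the earliest, middle and latest title year, 2 and 1 on OP9-DL1, 2 and 0 on OP9-DL4, 3 and 4 with standard IL-7, 1 and 0 with reduced IL-7, and 0 and 0 in pairs titled DN2, where fewer libraries enter each fit. The block changed no member's direction. Over all genes the counts higher and lower fell too, from 1242 and 900 of 12678. By title year, earliest first, these were 360 and 115 of 12591, 169 and 101 of 13092, and 453 and 325 of 12710. They were 575 and 413 of 12517 on OP9-DL1 and 289 and 162 of 13044 on OP9-DL4. Standard IL-7 gave 729 and 667 of 12664, and reduced IL-7 336 and 94 of 12879. The pairs titled DN2 gave 21 and 29 of 12444, and the 7 culture pairs 513 and 361 of 12836.

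In DN2b against DN2a the counts of 6 and 4 were 2 and 2 with a pseudocount of 0.1, 3 higher with quantile normalization, and 0 and 0 with replicates 1 and 2 of each stage. Over all genes 1234 were higher and 565 lower of 13364. These were 637 and 428 with that pseudocount, and 47 and 21 of 13065 with replicates 1 and 2 of each stage. Spns2 was -3.61 with that pseudocount and -3.46 with quantile normalization, which moved the median of all genes. In cultured against fresh DN3 cells the count of 1 higher was 0 with no filter or quantile normalization, the count of lower genes was 1 with robust variances, and S1pr3 was 0.14 with quantile normalization.

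Leaving out 1 library at a time gave 0 to 5 higher and 0 to 6 lower in DN2b, and 0 to 3 higher and 0 to 4 lower in cultured DN3 cells. Over all genes, leaving out 1 DN2a library at a time gave 141 to 941 higher and 93 to 465 lower in DN2b. With any 1 library left out, S1pr1 ran from -0.93 to 0.41 and S1pr3 from -2.58 to -0.59 in DN2b against DN2a. With GSI, S1pr1 ran from -0.05 to 0.49 and S1pr3 from -0.64 to 0.16. In cultured DN3 cells S1pr3 ran from -0.10 to 0.007 and Spns2 from -0.0703 to 0.63. Depth is unknown, and values near the floor of 0.1, such as Klf2 in 3 libraries, carry little information.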
